A study of Mus musculus with 81 samples.

Results

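Thymic lymphomas of 23 mice were chosen by how strongly a single variable segment of the T-cell receptor beta chain dominated the transcripts of that chain. For each mouse, the counts of 35 Trbv genes were summed over its biopsies, and the share of the most counted gene was taken. Among the lymphomas with at least 1000 Trbv counts, 12 mice with a share of at least 90% were selected as the high-share class and 11 mice with a share under 80% as the low-share class, out of 31 lymphoma mice and 40 mice in all. Another 7 lymphomas lay from 80% to under 90%, and 1 lymphoma had too few Trbv counts. The series asked how transient genomic instability affects tumour development, and it holds 81 RNA-seq libraries of thymic tissue, 21 from the high-share and 24 from the low-share mice.

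All mice were of the strain given as C57BL/6 x 129S4Sv/Jae, and all, controls included, carried Plk4(Col1a1), rtTA(Rosa) and centrin-GFP(Rosa). Plk4 starts centriole duplication, and rtTA is the activator that switches on a doxycycline-responsive transgene. The lymphoma mice were p53-/- without doxycycline, p53-/- given doxycycline for 2 weeks from 30 days of age, or p53+/- given the same treatment. The high-share class held 2, 3 and 7 mice of these groups and the low-share class 5, 4 and 2. The 9 normal thymuses, 8 of them p53+/+ and 1 p53+/-, served as a reference level and entered no test of the classes. Each library is bulk tissue, in which fewer cells of a type and less RNA per cell cannot be told apart.

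A T cell builds its beta chain by joining 1 V segment to a D and a J segment, ahead of a constant region, Trbc1 or Trbc2. Each V segment is a separate gene, so a polyclonal thymus transcribes many Trbv genes and the offspring of a single rearranged cell mostly transcribe the same one. Allelic exclusion limits most T cells to 1 productive beta chain, while the second allele can carry a further rearrangement or germline transcripts, and thymocytes that have not rearranged can transcribe unjoined segments. A Trbv share is therefore no count of clones, and the classes are named here by their share.

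The genes of the Trbv13 subgroup are similar in sequence, which matters for reading these shares, because a read within a stretch they share can be assigned to either gene. A Trbv13 gene led 4 of the 12 high-share and 4 of the 11 low-share lymphomas, and Trbv13-2 was the second gene in 5 and 6 of them. The last 100 bases of their V exons, from the GENCODE M21 transcripts of GRCm38, are shown 5′ to 3′ on the plus strand, with capitals at the 23 positions where the 3 genes are not all alike. They lie at chr6:41116369-41116468, chr6:41121733-41121832 and chr6:41130486-41130585 in the order printed.
Trbv13-1: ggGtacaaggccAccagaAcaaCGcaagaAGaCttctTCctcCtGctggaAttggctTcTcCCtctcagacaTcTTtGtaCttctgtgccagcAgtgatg
Trbv13-2: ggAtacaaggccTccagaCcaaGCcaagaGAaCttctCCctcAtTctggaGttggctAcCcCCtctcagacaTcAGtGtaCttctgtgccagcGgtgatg
Trbv13-3: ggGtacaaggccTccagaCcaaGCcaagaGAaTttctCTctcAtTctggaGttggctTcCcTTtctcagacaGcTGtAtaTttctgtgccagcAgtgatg
Trbv13-2 and Trbv13-3 were the closest pair, with 91.4% of the last 280 bases identical and a longest identical run of 50 bases. Trbv13-1 matched Trbv13-2 at 88.2% and Trbv13-3 at 85.4% of these bases. Shares of 1 Trbv13 gene beside another are therefore uncertain, by an amount that was not measured.

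Within the high-share class the leading share ran from 91.42% to 99.76%, with a median of 97.04%. The highest was mouse 120, where Trbv29 took 99.76%. Mouse 905, also led by Trbv29, stood at 98.89%, mouse 24 at 98.82% (Trbv26), mouse 157 at 98.81% (Trbv4) and mouse 659 at 98.21% (Trbv12-2). Mouse 328 (Trbv26) reached 97.10% and mouse 309 (Trbv13-1) 96.98%. The other 5 lay between 91.42% and 93.38%: mouse 908 and mouse 653 were led by Trbv13-2, mouse 266 by Trbv17, mouse 903 by Trbv13-1 and mouse 490 by Trbv16. The 12 tumours thus used 8 different leading genes, and no gene led more than 2 of them.

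In the low-share class the leading share ran from 53.27% to 79.68%, with a median of 67.91%, and the second gene held 8.32% to 30.7%. Mouse 562 had the lowest share, 53.27% of Trbv13-3 beside 25.7% of Trbv13-2. Mouse 553 held 56.94% of Trbv5 and 24.0% of Trbv13-3, and mouse 862 held 59.57% of Trbv13-1 and 20.4% of Trbv14. Mouse 870 held 59.12% of Trbv17 and 30.7% of Trbv13-2. Trbv20 led mouse 884 at 66.97% and mouse 643 at 67.91%, Trbv19 led mouse 663 at 70.16% and Trbv12-2 led mouse 98 at 73.41%. Trbv13-2 led mouse 637 at 75.44%, Trbv13-3 led mouse 325 at 77.14% and Trbv4 led mouse 497 at 79.68%. These 11 tumours used 9 different leading genes.

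The effective number of Trbv genes, the inverse of the summed squared shares, was 1.005 to 1.192 in the high-share class, 1.527 to 2.65 in the low-share class and 13.83 to 16.95 in normal thymus. Between 1 and 3 genes passed 1% of the Trbv counts in the high-share mice, between 3 and 8 in the low-share mice and 19 or 20 in normal thymus. Every normal thymus was led by Trbv13-2, at 10.16% to 17.02%. Even the most mixed tumour of these classes was therefore far from the composition of a normal thymus. These values follow from the selection and are given with no test. The lymphoma of mouse 881, outside the classes, had an effective number of 12.27, from only 107 Trbv counts.

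**Figure D1:**
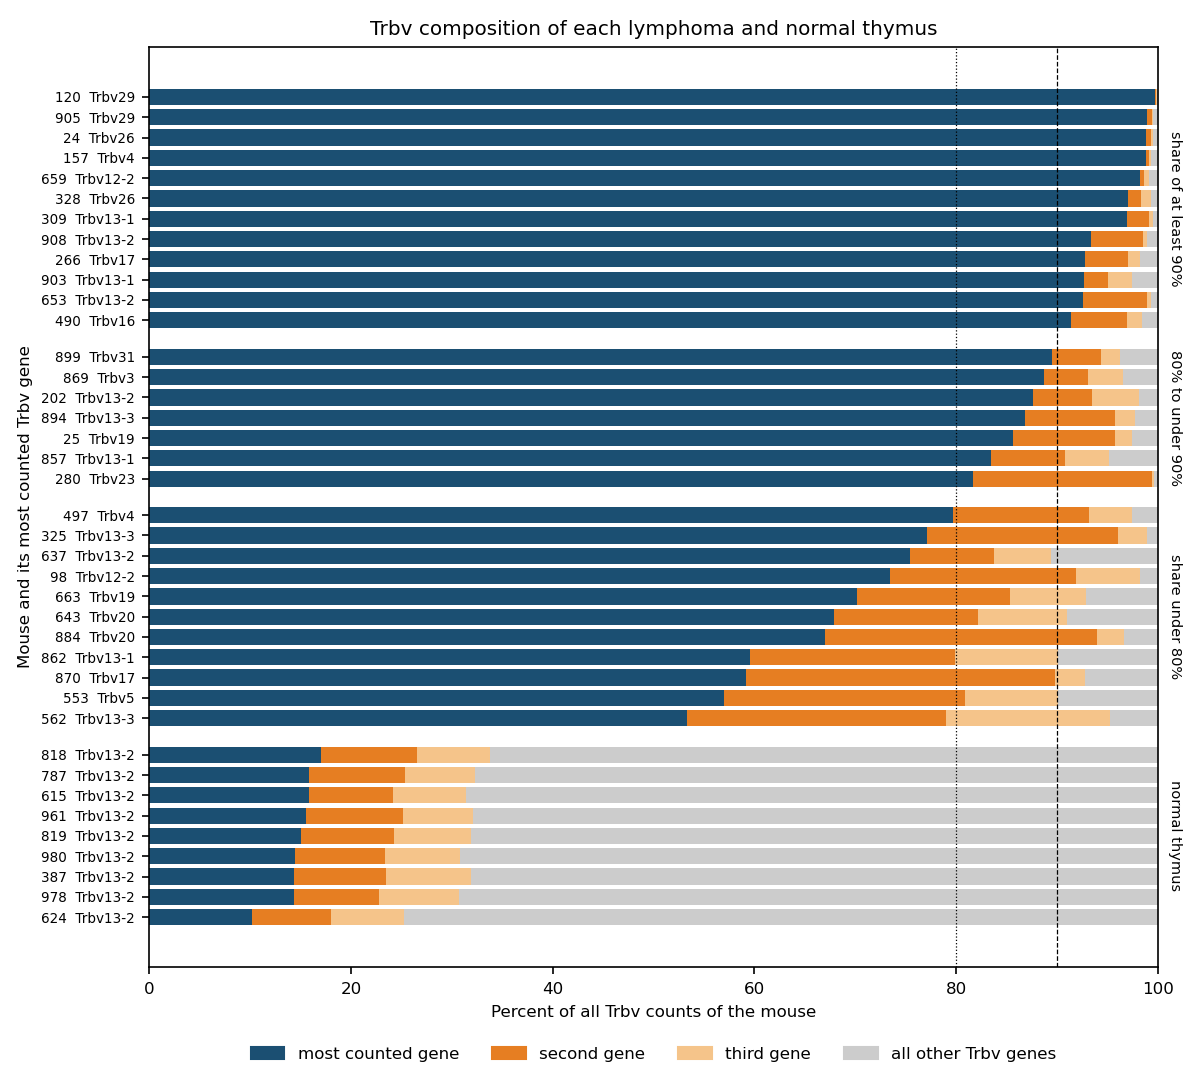
Percent of all Trbv counts taken by the most counted, the second, the third and all other Trbv genes, in 1 bar per mouse, with the leading gene named beside it; the dashed and dotted lines mark 90% and 80%. The leading gene fills 91.42% to 99.76% of the bar in the 12 high-share lymphomas, 53.27% to 79.68% in the 11 low-share lymphomas and at most 17.02% in the 9 normal thymuses.

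The selection rested on 2770 to 54970 Trbv counts per high-share mouse and 1929 to 62040 per low-share mouse. The widest Wilson 95% interval was 2.08 percentage points to either side (mouse 643, 65.79% to 69.96%). Closest to the thresholds, mouse 490 was inside the high-share class at 91.42% (interval 90.81% to 92.0%) and mouse 899 outside it at 89.47% (89.2% to 89.73%). Mouse 497 was inside the low-share class at 79.68% (78.74% to 80.58%), so its interval reached past the threshold, and mouse 280 was outside at 81.73% (80.94% to 82.49%). If each Trbv13 and Trbv12 subgroup was counted as 1 gene, mouse 325 moved from 77.14% to 96.25% and would have been in the high-share class, while mouse 562 reached only 79.04%. Mice 894 (95.79%) and 857 (90.89%), between the classes, would also have passed 90%, giving 15 high-share and 10 low-share mice.

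The total of Trbv counts, scaled to library size as CPM, overlapped between the classes, at 114.8 to 1251 (median 628.6) in the high-share mice, 156.4 to 712 (median 450.6) in the low-share mice and 49.09 to 655.5 (median 501.1) in normal thymus. The constant regions sit in the same transcripts as the V segments and are likewise a description. The more counted of Trbc1 and Trbc2, which are near-identical copies, held at least 99% of Trbc counts in 9 of 12 high-share and 3 of 11 low-share lymphomas, and 62.9% to 70.13% in normal thymus. A high Trbv share did not always come with a single constant region: mouse 908 and mouse 653, both led by Trbv13-2, held 60.74% and 65.58%. The reverse also occurred, since mice 562, 325 and 98 of the low-share class passed 99%.

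Several biopsies were taken from 3 high-share and 4 low-share tumours, and these showed different patterns of Trbv usage. In mouse 870, Trbv17 took 91.76% and 91.15% of the Trbv counts of biopsies 1 and 3, while Trbv13-2 took 66.55% and 74.3% of biopsies 5 and 7. Trbv17 still held 20.09% in biopsy 5 but 0.26% in biopsy 7. In mouse 884, Trbv20 took 90.25% of biopsy 2, and Trbv13-2 took 74.97%, 51.09% and 80.86% of biopsies 5, 6 and 8, with 38.48% of Trbv20 remaining in biopsy 6. So 2 low-share tumours differed in leading gene between their biopsies, and each had at least 1 biopsy that alone met the high-share threshold.

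In the other 2 low-share tumours with several biopsies, the same gene led every biopsy with a second gene beside it. In mouse 325, Trbv13-3 held 75.55% to 79.62% and Trbv13-2 17.06% to 20.57% in all 4 biopsies. These are the closest pair of Trbv13 genes in sequence, and the subgroup counted as 1 gene held 96.25%. Whether this tumour was mixed or its reads were shared between similar genes was not tested. In mouse 862, Trbv13-1 held 55.5% to 61.09% of all 5 biopsies, and Trbv14 held 11.79% to 25.37%, giving way to Trbv13-2 (14.1%) as the second gene in biopsy 7. The high-share tumours were even: Trbv13-1 held 91.83% to 93.83% in mouse 903, Trbv29 98.29% to 99.24% in mouse 905 and Trbv13-2 92.82% to 94.07% in mouse 908, over 4 biopsies each. Mouse 869, at 80% to under 90% as a sum, held 93.59% to 95.22% of Trbv3 in 3 biopsies and 47.59% in biopsy 3, beside 35.37% of Trbv13-2.

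**Figure D2:**
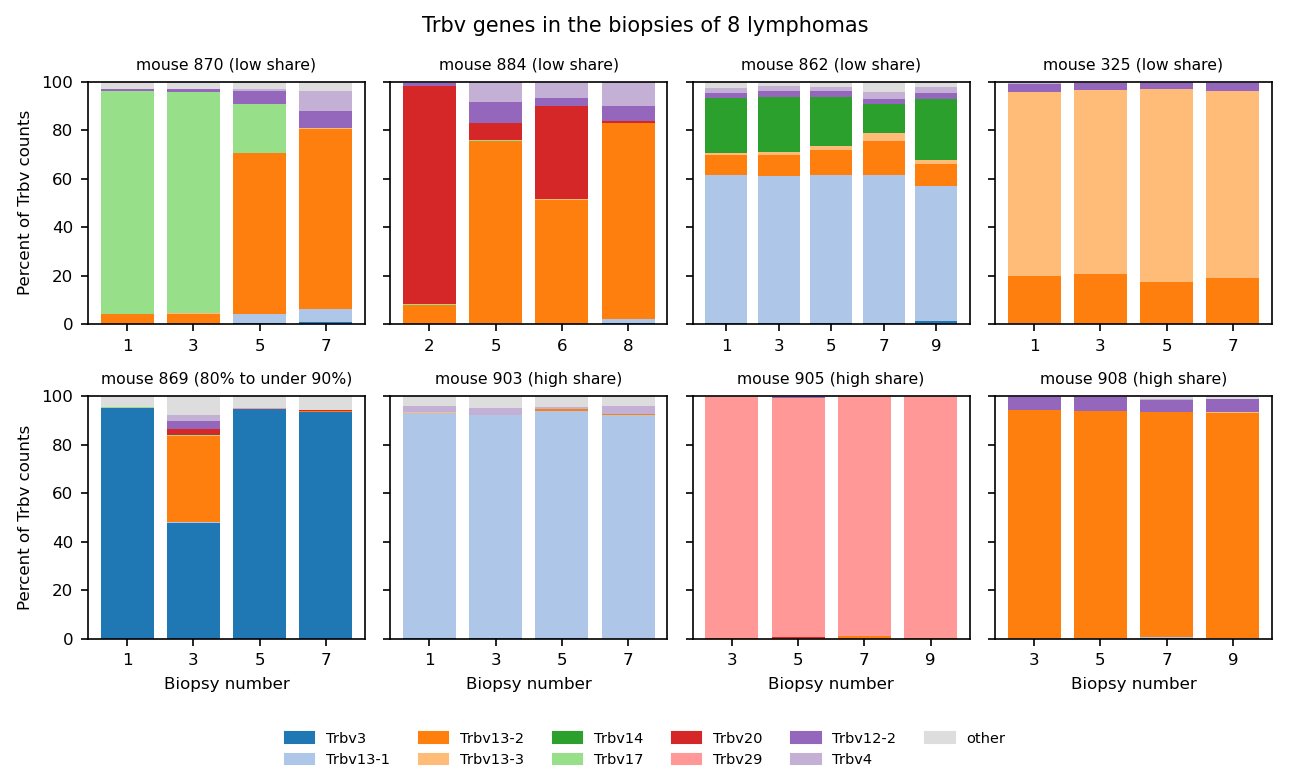
Percent of Trbv counts by gene in each biopsy of 8 lymphomas, with biopsy numbers on the horizontal axis and 1 panel per mouse. The leading gene changes between biopsies of mice 870 and 884, is the same gene with a second one beside it throughout mice 325 and 862, and is nearly alone in every biopsy of mice 903, 905 and 908.

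In mice 870 and 884, biopsies with different leading Trbv genes were farther apart in expression by chromosome than those with the same one. For each biopsy, the log2 ratios to normal thymus were summarised as 1 median per autosome, 19 in all, and 2 biopsies were compared by the mean absolute difference of these medians. In mouse 870 this distance was 0.0919 to 0.125 for the 4 pairs with different leading genes and 0.061 to 0.0624 for the 2 pairs with the same one. Mouse 884 gave 0.102 to 0.142 for 3 pairs and 0.0392 to 0.0539 for 3 pairs. In mouse 870 the genes of chromosome 16 had medians of -0.07 and 0.04 in the Trbv17-led biopsies and 0.35 and 0.52 in the Trbv13-2-led ones. In mouse 884 chromosome 17 stood at 0.19 in the Trbv20-led biopsy and -0.24 to -0.16 in the others, and chromosome 11 at -0.07 against 0.20 to 0.31. Distances as large occurred among biopsies that shared a leading gene, up to 0.136 in mouse 869, 0.127 in mouse 908, 0.125 in mouse 857 and 0.124 in mouse 862. In mouse 869 they came from the 3 pairs with its biopsy 3, at 0.121 to 0.136. Those pairs shared a leading gene but were 48.7% to 49.6% apart in Trbv composition, while the pairs of mouse 908 were at most 1.61% apart. The libraries of mouse 857 were small, at 1.03 to 5.027 M counts. Mouse 881, outside the classes with few Trbv counts, gave 0.0414 to 0.082 for its 6 pairs. Its biopsies held only 13 to 58 Trbv counts each, with ties for the lead in biopsies 1 and 7. Their leading genes are therefore not firm, and its pairs cannot be set beside those of mice 870 and 884. All pairs of a mouse share biopsies and are described with no test.

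The classes were spread unevenly over the labels, though none of the 4 labels tested passed an exact test. p53+/- mice were 58.3% of the high-share and 18.2% of the low-share class (7 of 12 and 2 of 11, Fisher's exact test, two-sided, p = 0.0894, adjusted over 4 labels 0.294). Doxycycline had been given to 83.3% and 54.5% (p = 0.193, exact), and 8 of 12 against 4 of 11 mice were labelled female (p = 0.220, exact), both adjusted 0.294. Several biopsies had been taken from 3 of 12 and 4 of 11 tumours (p = 0.667, exact and adjusted). The label group and the labelled sex were therefore terms in the gene-level fit. Sex-linked genes went against the labelled sex in 3 mice of the series, 1 of them in each class. By these genes 9 of 12 high-share and 3 of 11 low-share mice were female. That difference is wider than the one by label and was not tested, and the main fit used the labelled sex.

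Outside the receptor segments, no single gene separated the classes. edgeR's quasi-likelihood test with Benjamini-Hochberg adjustment called 0 of 14964 genes (0.0%), with a lowest adjusted p of 0.117. At an unadjusted p under 0.05 there were 1013 genes (6.77%), 482 of them higher in the high-share class (3.22%) and 531 lower (3.55%). The split between directions depended on the scaling: it was 534 higher and 477 lower with RLE size factors, and 629 and 271 with no scaling factors. DESeq2 called 10 genes and limma voom 0. The lowest adjusted p was shared by D430019H16Rik, a gene of low level (mean log2 CPM -0.23, log2 difference 2.89) named here after its values were seen. On counts simulated from these mice, the edgeR fit recovered 44% of genes changed by a factor of 2 and 69.1% of those changed by a factor of 4, so differences of those sizes in single genes could have been missed.

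Among genes averaging 2 or more in log2 CPM, the smallest p belonged to Cfap36, which encodes a protein linked to cilia and lies at chr11:29221532-29247409. Its log2 CPM was 3.85, 4.45 and 4.89 (lowest, median, highest) in the high-share class and 4.65, 5.33 and 6.06 in the low-share class. 10 of the 12 high-share mice were below every low-share mouse, and the fitted log2 difference, high minus low, was -1.01 ± 0.18 (SE, edgeR adjusted p = 0.117). Cfap36 and the genes named after it were picked by their p, so such counts of mice follow from the picking and are no further support. How many of all tested genes reach such counts was not computed. The 8 p53+/+ normal thymuses had a median of 4.67, between the class medians. DESeq2 called this gene, with a log2 difference of -0.99 and an adjusted p of 0.00144. Ndufs6, a subunit of mitochondrial complex I at chr13:73319838-73328542, followed at -0.55 ± 0.11 (edgeR adjusted p = 0.22, DESeq2 0.00145), with 5.37, 5.91 and 6.42 against 5.95, 6.30 and 6.59, and 7 high-share mice were below every low-share mouse.

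The other 8 of the 10 genes with the smallest p on the lower side all had an edgeR adjusted p of 0.664. Smn1, needed for assembly of the splicing machinery, differed by -0.50, and Mrps30, a mitochondrial ribosomal protein, also by -0.50, with 9 high-share mice below every low-share mouse. Psmc3, an ATPase subunit of the proteasome, differed by -0.58 and Adrm1, a ubiquitin receptor of the proteasome, by -0.44. The remaining 4 were Stx8 (-0.67), a membrane fusion protein of endosomes, Usp3 (-0.71), a deubiquitinase, Slc35b1 (-0.56), a transporter of the endoplasmic reticulum, and Bola3 (-0.61), a factor of mitochondrial iron-sulfur clusters. None was called by edgeR, and Smn1 was called by DESeq2 (adjusted p = 0.0356).

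On the higher side, Dmxl2, a regulator of the proton pump of vesicles, had a log2 CPM of 1.21, 2.62 and 3.65 in the high-share class and 0.84, 1.76 and 2.60 in the low-share class. Its difference was 1.29 ± 0.31 (SE, edgeR adjusted p = 0.664, DESeq2 0.0267), and the classes overlapped. Kctd10 had the narrowest high-share range, 6.13, 6.42 and 6.61 against 5.61, 6.00 and 6.44, and a difference of 0.40 ± 0.11. The others were Zfp992 (1.41), Rasgef1b (1.09), Rftn1 (0.74, or 0.49 without mouse 120), a lipid raft protein of lymphocytes, Tnk2 (0.72), a non-receptor tyrosine kinase, Adcy7 (0.71), an adenylyl cyclase, Phf13 (0.64), a chromatin reader, Uba6 (0.62), a ubiquitin-activating enzyme, and Ttyh3 (0.47). All of them had an edgeR adjusted p of 0.664.

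Of the 10 genes named on the lower side, 6 lay on chromosomes 11 and 13, which held 1209 and 563 of the 14964 tested genes, and of the 10 on the higher side, 6 lay on chromosomes 4 and 5, which held 915 and 1008. These chromosomes were picked after the genes were seen, and no test was made. The share of low-p genes varied between chromosomes, to an extent that depended on the mice and settings. On chromosome 5, 88 of 1008 tested genes (8.73%) had p under 0.05 and were higher in the high-share class and 3 (0.298%) were lower, against 3.22% and 3.55% over all tested genes. The 88 became 58 without mouse 862, 133 without mouse 643 and 145 without mouse 157, and the split was 23 higher and 21 lower with thresholds of 95% and 70% and 37 and 20 with at least 10000 Trbv counts. On chromosome 11, 123 of 1209 genes (10.2%) were lower and 10 higher. That became 76 lower and 25 higher without mouse 862, and within p53-/- mice it turned to 29 lower and 48 higher. On chromosome 13, 53 of 563 (9.41%) were lower and 8 higher, or 19 and 8 of 723 within p53+/- mice. Chromosome 7 had 68 of 1133 (6%) lower and 12 higher, which became 115 lower without mouse 884, and 17 lower and 18 higher with at least 10000 Trbv counts. Chromosome 4 had 27 of 915 genes (2.95%) higher and 10 (1.09%) lower, but 53 (5.77%) higher and 8 lower without mouse 884 and 60 (6.3%) higher with 90% against all under 90%. It turned to 21 higher and 30 lower without mouse 862, 25 and 33 within p53+/- mice, and 22 and 24 with at least 10000 Trbv counts. Genes of 1 chromosome share its copy number and are not independent.

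On the X chromosome 73 of 488 genes (15%) were higher and 2 lower, although labelled sex was a term. The share was 34% (166 genes) with neither sex nor label group as a term, 25.2% (123 genes) with sex but no label group, 10.9% (53 genes) with sex taken from expression and 7.76% (38 of 490) without the mice whose sex genes went against the label. It was 48 genes without mouse 653, and the direction turned within p53+/- mice (3 higher and 25 lower of 656) and with at least 10000 Trbv counts (7 and 15 of 624).

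**Figure D3:**
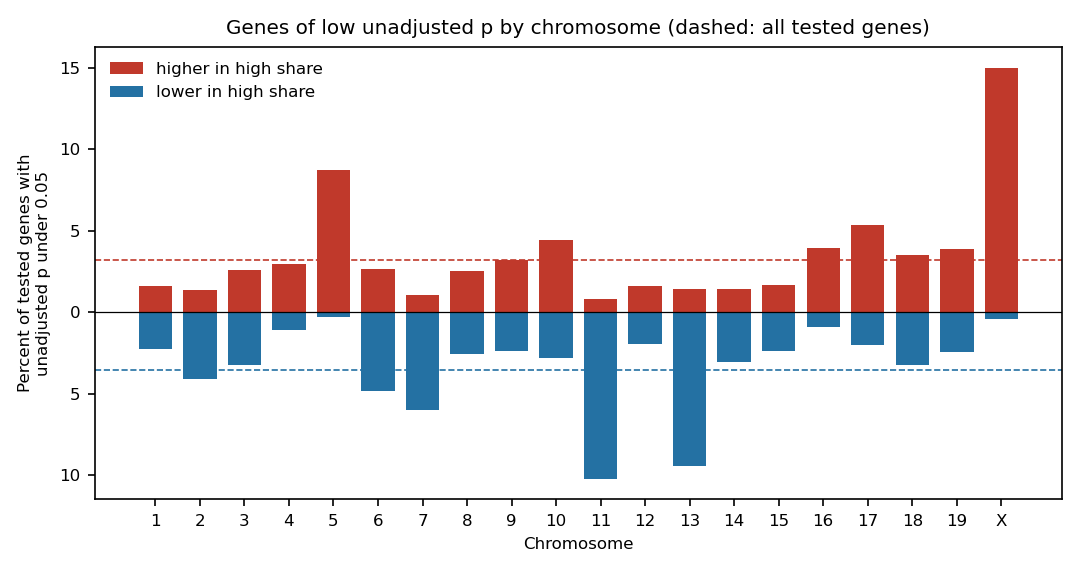
Percent of the tested genes of each chromosome with an unadjusted edgeR p under 0.05, above the axis where higher in the high-share class and below it where lower. The dashed lines are the percentages over all tested genes (3.22% and 3.55%); chromosome 5 (8.73%) and X (15%) are the tallest bars above and chromosomes 11 (10.2%) and 13 (9.41%) below, and these shares change with the mice and settings used.

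By the median log2 ratio to normal thymus over whole chromosomes, autosomes 4, 5, 11 and 13 had the lowest p. Chromosome 5 averaged 0.56 in the high-share class (lowest 0.07, median 0.59, highest 1.07) and 0.31 in the low-share class (0.06, 0.28 and 0.73), a difference of 0.25. Chromosome 4 averaged 0.40 and 0.25. Chromosome 11 averaged -0.01 and 0.15, and chromosome 13 averaged -0.15 and -0.03. The ranges of the classes overlapped on each of the 4 autosomes.

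By exact permutation the unadjusted two-sided p-values were 0.0343 for chromosome 4, 0.0151 for chromosome 5, 0.0306 for chromosome 11 and 0.0201 for chromosome 13. All 4 had an adjusted p of 0.163 over the 19 autosomes, so 0 autosomes passed. With only the first biopsy of each mouse, which put 15 mice in the high-share and 9 in the low-share class, chromosomes 4 and 5 passed with differences of 0.23 and 0.32 (adjusted p = 0.00916, exact permutation) and chromosome 11 with -0.20 (0.0408). With the label group as a term, chosen after seeing the data, no autosome passed and the lowest adjusted p was 0.36.

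The overall departure from normal thymus averaged higher in the high-share class, by a margin that depended on single mice. Chromosome imbalance was measured as the SD over the 19 autosomes of these medians, from 14868 genes; it is a measure of expression, not of DNA. It was 0.234, 0.321 and 0.382 (lowest, median, highest) in the high-share class and 0.111, 0.27 and 0.353 in the low-share class, while the 8 p53+/+ normal thymuses lay between 0.019 and 0.0589. The means were 0.316 ± 0.0441 (SD, n = 12) and 0.261 ± 0.0648 (SD, n = 11), a difference of 0.0551 (exact permutation test, two-sided, p = 0.0219, adjusted over the 2 single-value tests 0.0438). The ranges of the classes overlapped, and the lowest value was mouse 562, which also had the lowest Trbv share. With single mice left out in turn, the difference stayed positive in 23 of 23 cases, but the adjusted p (exact permutation) was under 0.05 in only 8, those without mouse 157, 328, 659, 908, 497, 663, 870 or 884. Leaving out any of the other 15 mice ended the call, and the adjusted p reached 0.0948 at a difference of 0.0402 without mouse 562. The call also ended at 0.0467 with Trbv subgroups, 0.0590 with thresholds of 95% and 70% and 0.0217 with at least 10000 Trbv counts.

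The difference was smaller once the label groups were taken into account. With the label group as a term and mice exchanged within groups, an alternative chosen after seeing the data, it was 0.0420 (p = 0.0750, exact permutation) and no longer passed. Among p53+/- mice, the high-share mean was 0.317 (n = 7) and the low-share mean 0.288 (n = 2; exact permutation p = 0.556). Among p53-/- mice with doxycycline, it was 0.338 (n = 3) and 0.297 (n = 4), and among untreated p53-/- mice 0.278 (n = 2) and 0.220 (n = 5). The high-share mean was thus the larger one in all 3 label groups. Over both p53-/- groups, with treatment as a term, the difference was 0.0487 (exact permutation p = 0.103).

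The difference was also computed in smaller sets of tumours. It was 0.0811 in the tumours with a single biopsy (p = 0.00778, exact permutation). Without the tumours whose biopsies had different leading genes it was 0.0722 (12 against 9 mice, p = 0.00261, exact permutation), a setting chosen after seeing the data. This setting removed only low-share mice 870 and 884, whose imbalance of 0.3225 and 0.3527 was the highest of their class. The larger difference follows from that removal and is no further support. Over all 30 lymphomas with at least 1000 Trbv counts, the leading share and the imbalance had a Pearson's r of 0.489 (permutation p = 0.00548) and a Spearman's rho of 0.388 (permutation p = 0.0344). Without mice 562 and 553, the farthest from the median share, r was 0.329 (permutation p = 0.0871) and rho 0.309 (permutation p = 0.111), so both stayed positive and the relation passed the test only with these mice.

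**Figure D4:**
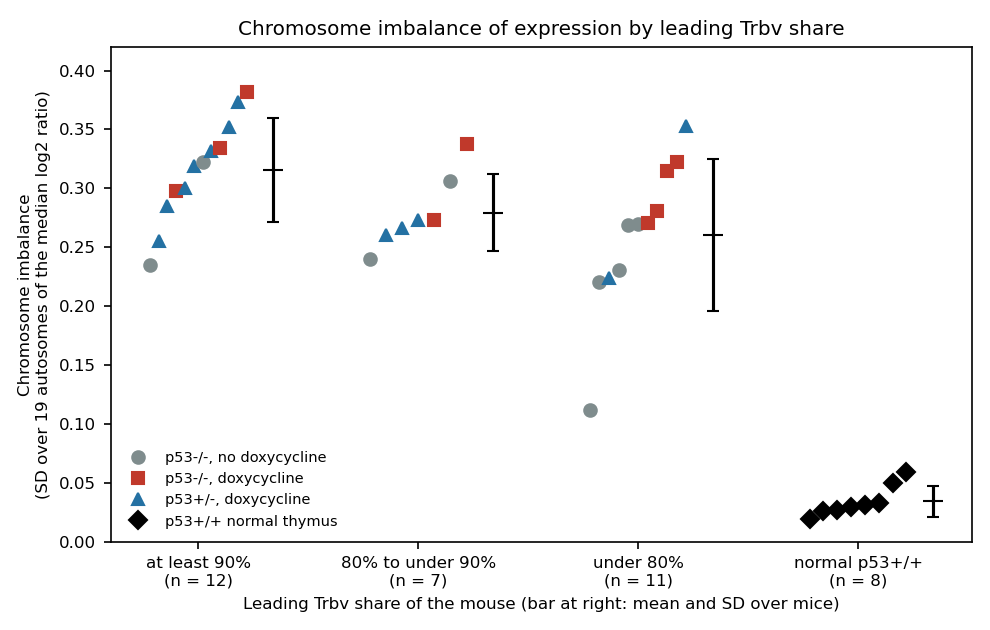
Chromosome imbalance of expression of each mouse (vertical axis, SD over 19 autosomes of the median log2 ratio to normal thymus) by Trbv share, with symbols for the label groups and the mean and SD at the right of each class. The high-share mice lie between 0.234 and 0.382 and the low-share mice between 0.111 and 0.353, all above the normal thymuses.

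Among 24 lists holding 285 genes of T-cell biology, other cell types and tumour pathways, 251 genes were tested and 0 were called. 7 of them (2.79%) had an unadjusted p under 0.05, all higher in the high-share class, beside 6.77% of all tested genes. The median log2 difference was 0.03 over the list genes and -0.01 over all genes tested. Each list is described below by its counts and median only.

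Genes of T lineage identity were abundant in both classes. The list's summed level was 3168 to 6936 CPM in the high-share and 2836 to 7650 CPM in the low-share class, and 1046 to 9017 CPM in normal thymus. 9 of its 10 genes had a negative difference, with a median of -0.20: Tcf7, the transcription factor that starts the T-cell programme, stood at -0.35, Lck, the kinase of the receptor complex, at -0.20 and Thy1, a surface marker of thymocytes, at -0.18. The receptor signalling list had a median of 0.10 (9 of 14 genes positive). None of these genes had an unadjusted p under 0.05.

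The thymocyte stage list had a median of -0.25 with 12 of 18 genes negative. Rag1, a subunit of the recombinase that cuts receptor genes, spanned 1.55, 731 and 2434 CPM in the high-share class and 28.7, 923 and 2450 CPM in the low-share class, a spread far wider than the difference between the medians. Cd69, an early activation and positive selection marker, was 1.64, 5.30 and 18.6 CPM against 1.22, 3.21 and 5.98 CPM, a log2 difference of 1.04 (unadjusted edgeR p = 0.0136, adjusted 0.664). This gene and the other 6 list genes of low p lie outside the naming rule and were chosen after their values were seen.

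Genes of mature T cells that leave the thymus had a median of 0.44, with 10 of 13 positive. Gimap4, a GTPase of mature lymphocytes, was 12.2, 41.9 and 262 CPM against 5.51, 20.8 and 59.4 CPM (log2 difference 1.35, unadjusted edgeR p = 0.0139). This difference was 0.86 without mouse 120 and 2.14 without mouse 884. The ranges of this gene overlapped between the classes. Ikzf2, which encodes Helios, a factor of regulatory T cells, was 19.1, 82.9 and 296.7 CPM against 25.9, 45.3 and 118.5 CPM (1.03, unadjusted p = 0.0158). Its list of checkpoint and regulatory T genes had a median of -0.03, which became 0.05 with no scaling factors, and the innate-like T list -0.01, which became 0.07. Nfatc1, a factor downstream of receptor signalling, differed by 0.35 (p = 0.0492), or 0.17 without mouse 157, and Ifi44, an interferon-induced gene, by 1.30 (p = 0.0215), all before adjustment.

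The regulators most linked to T-cell leukemia overlapped widely between the classes, and none was called. Notch1 was 17.5, 854 and 1627 CPM in the high-share and 49.5, 1038 and 2493 CPM in the low-share class, and the Notch list had a median of -0.03, which became 0.10 with no scaling factors. Myc stood at 58.4, 241 and 346.5 CPM against 88.0, 211.7 and 303.5 CPM. Cdkn2a, the locus of p16 and p19ARF, was 87.7, 221 and 411 CPM against 25.9, 217 and 313 CPM, and at most 3.5 CPM in normal thymus. The lists of T-lineage transcription factors, leukemia oncogenes and G1 control had medians of 0.04, 0.06 and 0.14.

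No gene of the proliferation and p53 lists was called or had an unadjusted p under 0.05. Top2a and Mki67, both marking dividing cells, differed by 0.18 and 0.22. The mitosis list had a median of -0.01, which turned positive with RLE size factors and with no scaling factors, and the chromosome instability checkpoint list -0.06. The p53 target list had -0.19, with 4 of 11 genes positive, the interferon-stimulated list 0.35 (9 of 12 positive) and the MHC class I list 0.23 (6 of 10 positive).

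The largest list medians, in either direction, were those of the fat, erythroid, B lineage and thymic epithelium lists, but no gene was called. All 5 tested fat genes were positive, with a median of 1.40: Cfd, the adipocyte protein adipsin, was 0.205, 14.1 and 89.9 CPM in the high-share and 0.162, 2.54 and 21.2 CPM in the low-share class (log2 difference 1.92, unadjusted edgeR p = 0.031), and Plin1, the lipid droplet coat, was 0.137, 1.45 and 5.56 CPM against 0.0298, 0.303 and 2.22 CPM (p = 0.0368). The summed level of the fat list was 63.1 to 257 CPM against 37.6 to 212 CPM, far below the 1374 to 12720 CPM of normal thymus. All 5 tested erythroid genes were negative, with a median of -1.39. The summed erythroid level reached 3563 CPM in 1 high-share mouse and 3173 CPM in 1 low-share mouse.

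The thymic epithelium list had a median of 0.61 with 6 of 7 tested genes positive, at a summed level of 10.8 to 294.5 CPM against 11.4 to 189 CPM, and 148 to 3260 CPM in normal thymus. Its defining genes were close to absent: Psmb11 was at 0 in 5 high-share and 4 low-share mice and Foxn1 in 4 and 2. B lineage genes had a median of -0.76 (3 of 9 positive) although their summed level was 158 to 1103 CPM against 51.9 to 1209 CPM with medians of 572 and 456 CPM. Ighm, the heavy chain of IgM and most of that sum, differed by 0.35. MHC class II genes had 0.26 (8 of 9 positive), macrophage genes 0.08 (9 of 12), cytotoxic genes 0.16 (5 of 8), fibroblast genes -0.12 (4 of 10) and endothelial genes -0.12 (3 of 8). The part of these cells in the differences above was not tested.

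The alpha chain, rearranged after the beta chain and not used for the selection, was examined as a second receptor locus of the same tissue. A leading Trav share is no count of clones either. In the 11 mice of both classes with at least 1000 Trav counts, the leading Trav gene held 7.06% to 69.2% (median 14.8%) in 6 high-share mice and 5.12% to 27.3% (median 12.97%) in 5 low-share mice. The means were 28.2% ± 27.2 (SD, n = 6) and 13.8% ± 8.75 (SD, n = 5), and the difference of 14.4 percentage points did not pass (exact permutation test, two-sided, p = 0.357). It was 6.18 points without mouse 120 and 8.83 points without mouse 266, so it moved by over 1.5 times with either of these tumours. With a minimum of 100 Trav counts, all 12 and 11 mice entered, at 25.1% and 14.6% (exact permutation p = 0.150). With near-identical Trav copies joined, chosen after seeing the data, the shares were 10.95% to 69.2% (mean 31.6%) and 7.09% to 27.3% (mean 16.3%; exact permutation p = 0.299). Mouse 908 then went from 7.06% to 15.17%.

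A single Trav gene held at least 50% in 5 of 30 lymphomas, 3 of them in the high-share class, 2 among the tumours at 80% to under 90% and none in the low-share class. Mouse 266 paired Trav16d-dv11 at 55.97% with Traj32 at 74.92% of its Traj counts, mouse 157 had Trav7d-4 at 50.53%, and mouse 857 had Trav8d-1 at 50.25% with Traj2 in 49 of 49 Traj counts. The 2 highest tumours had the same leading V and J genes, and which V was joined to which J was not read. Mouse 120 held 69.21% of Trav11d (852 of 1231 counts, Wilson 95% interval 66.58% to 71.73%) and Traj18 in 65 of 72 Traj counts (90.28%, interval 81.26% to 95.21%). Mouse 202, with a Trbv13-2 share between the classes, held 69.43% of Trav11d (82.56% with copies joined) and Traj18 in 94 of 102 counts (92.16%, interval 85.28% to 95.97%). These mice were singled out after their values were seen.

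Trav11 joined to Traj18 is, as background, the alpha chain of invariant natural killer T cells, which pair it with Trbv13-2, Trbv29 or Trbv1. The segments as GENCODE M21 gives them on the plus strand of GRCm38 are the last 60 bases of the Trav11d exon at chr14:52824853-52824912 and Traj18 at chr14:54200777-54200842. Trav11d and its duplicate Trav11 were identical over 342 bases, so counts cannot be told apart between them.
Trav11d: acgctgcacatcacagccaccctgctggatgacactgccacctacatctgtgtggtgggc
Traj18: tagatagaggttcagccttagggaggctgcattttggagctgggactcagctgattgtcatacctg
The leading beta segments of these tumours were Trbv29 in mouse 120 and Trbv13-2 in mouse 202. Zbtb16, which encodes PLZF, a transcription factor of natural killer T and other innate-like T cells, was 190.1 CPM in mouse 202 and 165.8 CPM in mouse 120. The next of the 30 lymphomas was mouse 497 at 12.21 CPM, the median was 2.728 CPM, and normal thymus had 8.384 to 67.71 CPM. Rag1 was lowest in the same tumours, 0.309 CPM in mouse 202 and 1.55 CPM in mouse 120, and stood at 29.4 CPM in mouse 157 and 91.4 CPM in mouse 266, but at 1212 CPM in mouse 857. Low-share mouse 884, with a leading Trav share of 16.18%, had the next lowest Rag1, 28.7 CPM.

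**Figure D5:**
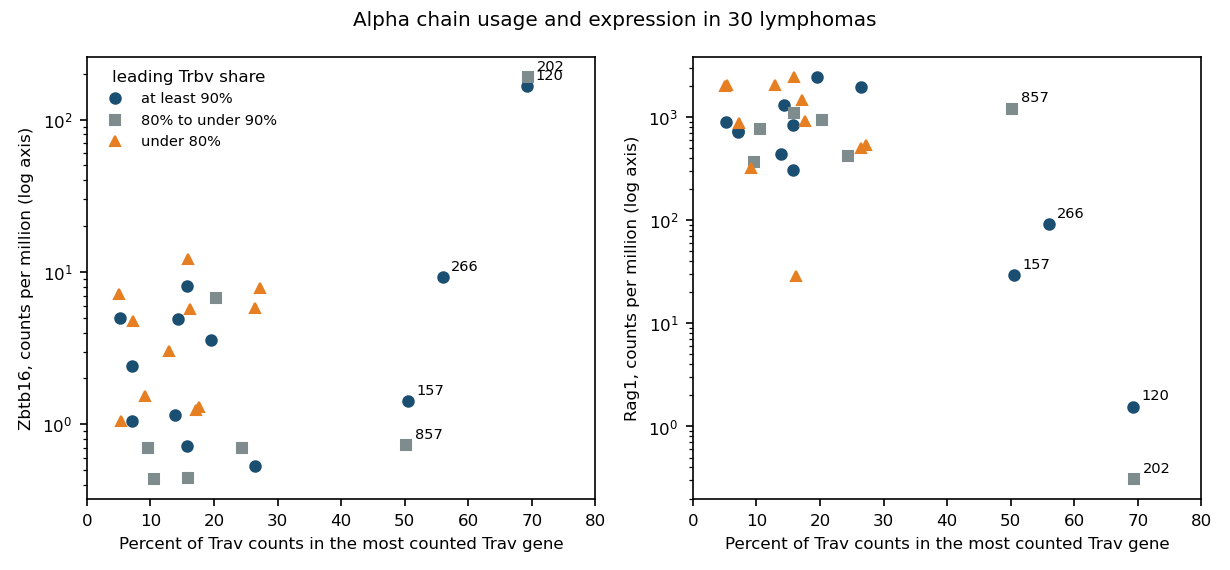
Zbtb16 (left) and Rag1 (right) in CPM on log axes against the percent of Trav counts in the most counted Trav gene, for 30 lymphomas by Trbv share class. Mice 120 and 202 lie at the upper right for Zbtb16 (165.8 and 190.1 CPM) and at the lower right for Rag1 (1.55 and 0.309 CPM).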

How the data were processed

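The authors deposited 1 table of expected counts (RSEM estimates per gene, not scaled between libraries) for 81 libraries and 51826 genes. CASAVA 1.8, fastp, STAR 2.7.2b, RSEM 1.1.17 and mm10 are named per the submitters' processing notes; strandedness is not given in the sources used here. Of all values, 14.25% were not whole, and RSEM shares ambiguous reads between similar segments. Counts were rounded and the biopsies of a mouse summed, since the mouse is the replicate. Libraries held 1.03 to 26.87 M counts, and summed mice 11.04 to 88.58 M (high share) and 9.48 to 87.16 M (low share).

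Members and gene lists were chosen with earlier results of these data known. Before testing, 258 receptor segment genes were left out. edgeR 4.0.16 in R 4.3.3 used filterByExpr, TMM and robust quasi-likelihood fits of the class with label group and labelled sex as terms, with calls at a Benjamini-Hochberg adjusted p under 0.05. DESeq2 1.42.0 and limma 3.58.1 (voom) were alternatives. CPM values are scaled by the plain total of the mouse; log2 CPM and fitted differences use TMM factors, with 2 as prior count for log2 CPM. Named genes are up to 4 per list by mean log2 CPM and, with under 5 calls in a direction, the 10 smallest p on that side among genes averaging 2 or more in log2 CPM. Predicted genes without a symbol of their own were not named.

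Single values were compared with two-sided exact permutation tests over mice (SciPy 1.17.1), or 100000 resamples where so many splits made enumeration too long and for the correlations. Intervals of shares are Wilson 95% intervals and cover counting error only, as reads are not independent molecules. Chromosome medians used 14868 genes averaging 1 CPM or more, between 352 and 1265 per autosome. Coordinates come from GENCODE M21 (GRCm38), which matched 51633 gene IDs (99.63%). The edgeR code was tested on simulated data of 14815 genes: it recovered 44 of 100 genes changed by a factor of 2 and 67 of 97 changed by a factor of 4, with 1 false call. Alternatives covered scaling, filters, thresholds, the Trbv minimum, sex, label groups, biopsies and leaving out single mice.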

Additional observations from a re-analysis of the deposited data

Results flagged for a closer look

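Among 31 groups of 4 to 10 biopsies or mice checked for a sample far from the others, 3 held one, and chance flags about 1 in 20 such groups. In mouse 862 of the low-share class, biopsy 9 had a Trbv13-1 share of 55.5%, below the 60.8% of the next and the 61.1% of the highest of 5 biopsies. In mouse 869, between the classes, biopsy 3 had a Trbv3 share of 47.6%, where the other 3 biopsies held 93.6% to 95.2%. The same biopsy had a chromosome imbalance of 0.27, below the 0.336 to 0.349 of the others.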

How the results depend on the processing

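The count of 0 called genes was 10 with DESeq2, 6 with no filter on low counts (of 36103 genes) and 0 to 2 when single mice were left out. The 2 calls, Arhgap20 (1.81) and Ica1 (-3.13), came without mouse 157. It stayed 0 under the other settings, with 543 to 1594 genes at an unadjusted p under 0.05 apart from a minimum log2 fold change of 1 (43 genes).

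The imbalance difference kept its direction under every setting. Adjusted over the 2 single-value tests, it no longer passed at 0.0467 with Trbv subgroups, 0.0590 with thresholds of 95% and 70%, 0.0217 with at least 10000 Trbv counts, 0.0285 within p53+/- mice, 0.0487 within p53-/- mice and 0.0420 with the label group as a term. Without single mice it ran from 0.0402 to 0.0643 and passed in 8 of 23 cases. Autosomes past the test numbered 3 with the first biopsy only and 2 without the tumours of differing leading genes, a setting that removed low-share mice only. Without single mice they numbered 0 to 1, the 1 being chromosome 5 without mouse 157 (0.29, exact permutation, adjusted p = 0.0458).

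The leading Trav share difference ran from 6.18 to 18.6 without single mice; the other settings gave 3.26 (90% against all under 90%) to 37.9 (single-biopsy tumours), with 27.6 for the label group as a term, and none passed. It was not computed within p53+/- or within p53-/- mice alone, where too few had enough Trav counts. Of 880 alternative values of the 20 named genes, 874 kept direction and side of the threshold, 5 passed and 1 turned: Adcy7 at -0.10 with at least 10000 Trbv counts. The excess of several biopsies in the low-share class turned to an excess of 10 percentage points in the high-share class with Trbv subgroups. The cause of these changes was not tested. No paired analysis was possible because replicate names are mouse numbers, which no groups share. Depth limits the Trav and Traj shares, with as few as 143 Trav counts and 1 Traj count in a low-share mouse.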

Other observations

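The lymphoma of mouse 881, untreated and p53-/-, was outside both classes with 107 Trbv counts over 4 biopsies. Its Trbc genes reached 7.9 CPM, where the other 30 lymphomas had at least 514.5. The summed T lineage list was 175.7 CPM, below the 2836 CPM of the lowest mouse of the classes, and the B lineage list was 9484 CPM, above their highest of 1209 CPM. Its chromosome imbalance was 0.244, within the range of both classes. The 2 lymphomas with Trav11d and Traj18 also had the lowest levels of Ptcra, the alpha chain of the pre-T-cell receptor, among 30 lymphomas (0.37 CPM in mouse 120 and 0.344 CPM in mouse 202), with T lineage sums of 3168 CPM (mouse 120) and 3322 CPM (mouse 202).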
